A study of Rattus norvegicus with 6 samples.

Results

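The vascular endothelial growth factor (VEGF) and angiopoietin ligands and receptors were measured in whole heart RNA of animals given the Chinese medicine formula AACO and of controls. All non-control array probes that carried the name of 1 of 10 genes were taken: the ligands Vegfa, Vegfb, Vegfc, Pgf, Angpt1 and Angpt2 and the receptors Flt1, Kdr, Tek and Tie1. This gave 14 probes of 30367, printed as 27 of 58717 spots, and every one of the 10 genes had at least 1 probe. Vegfa had 4 probes, Pgf had 2 and each other gene had 1.

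The AACO group (n = 3 arrays) received AACO at 0.386 µg/g, and the control group (n = 3) received the same amount of double-distilled water. Each was given once a day over 8 weeks, with death 24 h after the final dose. Per the series text all animals had TAC, the usual short name in heart failure research for transverse aortic constriction, so the controls carried the operation too and no unoperated heart was analysed here. The series text speaks of mice, while the sample labels name Rattus norvegicus and the array files give probe positions on rn4, a rat build, and the arrays were read as rat. Strain, sex, age and the letters of AACO are not given in the sources used here. Different donors are stated for each experiment, but not which array holds which donor, so p-values cover the spread among these 6 arrays alone.

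VEGF ligands are secreted proteins that bind receptor tyrosine kinases on endothelial cells and drive their growth, migration and permeability. Kdr carries most of this signal, while Flt1 binds Vegfa, Vegfb and Pgf tightly and acts largely as a trap. Angpt1, made by cells around the vessel and by heart muscle, activates the endothelial receptor Tek and steadies vessels, and Angpt2, released by endothelial cells, often opposes it. Tie1 is a partner of Tek that binds neither ligand with high affinity by itself.

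The probe sequences are shown for the 2 genes on which the results turn. The Angpt1 probe is the sole reading of that gene, and the array file places it on chromosome 7 of rn4, minus strand, at chr7:78195504-78195509. That span is 6 bases, shorter than the 60-base probe, so the position covers a part of it. The 2 Vegfa probes shown read known coding sequence and lie on the plus strand of chromosome 9, at chr9:10528551-10528610 and chr9:10531972-10532031. The second of them, called the downstream coding probe here, reads a stretch that the array's own transcript list gives for variant 1 but not for variant 3. It is known as the heparin-binding stretch of the longer Vegfa isoforms, which the shortest common isoform lacks. The brightest Vegfa probe lies at chr9:10535933-10535992.
Angpt1 probe: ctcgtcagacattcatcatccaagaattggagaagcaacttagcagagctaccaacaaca
Vegfa upstream coding probe: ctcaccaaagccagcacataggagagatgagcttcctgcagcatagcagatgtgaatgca
Vegfa downstream coding probe: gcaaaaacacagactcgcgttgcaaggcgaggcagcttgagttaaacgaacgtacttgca

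Between 70.9% and 72.4% of spots were well above background on the AACO arrays, against 66.0% to 68.7% on the control arrays. The AACO arrays were on 1 slide with 1 scan day and the control arrays on another slide and day, so slide, scan and treatment cannot be told apart for any value below. All 10 cardiomyocyte markers, looked up to check the label of heart tissue, were detected well enough to be tested. The atrial transcripts Myl7 and Sln set the arrays apart. Their mean level was 3.11, 5.05 and −0.74 on AACO replicates 1, 2 and 3 and −2.01, −1.67 and −1.05 on control replicates 1, 2 and 3. These 2 transcripts were thus higher on AACO replicates 1 and 2 than on the other 4 arrays. The atrial marker Nppa was not, at 2.80, 5.49 and 5.86 with AACO and at 4.95, 5.25 and 6.99 in control.

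Levels are log2 of the processed signal minus log2 of the array's 75th percentile, so 0 is the brightness of a spot at that percentile. A difference is AACO minus control on that scale, and the levels of different probes are not compared. A gene is said to have risen or fallen where limma's adjusted p, over all 17536 genes tested, was under 0.05. By that rule 0 of the 10 genes differed between the groups, against 11.3% of all genes tested. Of these 10 genes, 4 had an unadjusted p under 0.05 (30.8% of all genes) and 3 had groups that did not overlap (37.4% of all genes). The fitted difference was below 0 for 7 of the 10, against 45.2% of all genes, and its median was −0.27, against 0.04 over all genes. Without scaling between arrays all 7 of these differences lay above 0, because the median of all genes then moved to 0.52. Scaling shifts all genes of an array by the same amount, so the place of the 7 below the median of all genes could not change.

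**Figure D1:**
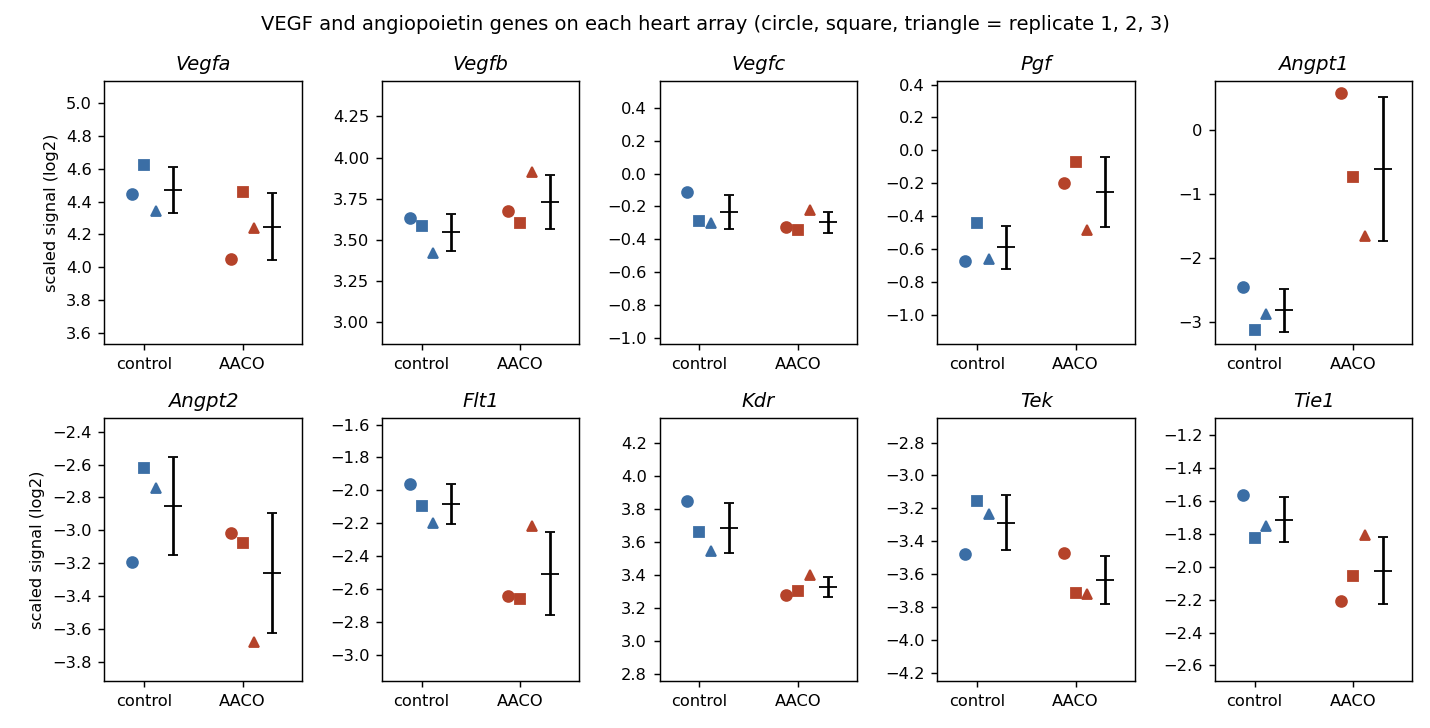
Level (log2 of the processed signal minus the array's 75th percentile) of each of the 10 genes on each of the 3 AACO and 3 control arrays, with 1 point per array and a bar at the group mean. Angpt1 is the gene whose groups lie farthest apart, with AACO from −1.66 to 0.57 and control from −3.13 to −2.46.

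Angpt1 had the largest difference of the 10 genes and missed the threshold by little. Its level was 0.57, −0.75 and −1.66 on AACO replicates 1, 2 and 3, and −2.46, −3.13 and −2.87 on control replicates 1, 2 and 3. Every AACO array was above every control array, and the AACO arrays spread over a wider range. The mean was −0.61 ± 1.12 with AACO and −2.82 ± 0.34 in control (SD, n = 3 each), a difference of 2.21 ± 0.54 (SE) or 4.62-fold, with a 95% interval from 0.90 to 3.52. The adjusted p was 0.0503 by limma. It was the 1 gene of the 10 with a difference of at least 4-fold, against 0.667% of all genes, and 52 genes (0.297%) had a difference above 0 at least as large. The processed signals behind it, before scaling, were 2514, 1293 and 675 on the AACO arrays and 327, 138 and 184 on the control arrays.

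The Angpt1 level was set beside Myl7 and Sln on the same arrays. Myl7, the atrial myosin light chain, was at 4.83, 6.26 and −1.06 on AACO replicates 1, 2 and 3 and between −2.91 and −1.51 on the controls. AACO replicate 3 was the lowest AACO array for Angpt1 as well as for Myl7 and Sln, and its Angpt1 level of −1.66 was above the highest control at −2.46. Its mean level of Myl7 and Sln, −0.74, was likewise above the highest control at −1.05. Of the whole atrial list, 6 of 7 markers were tested, 0 passed limma's test and 2 had an unadjusted p under 0.05. The median difference of the 6 was 0.49, with 4 above 0 and 2 below. A summed level, here and below, adds linear signals, so bright genes weigh most in it. That of the atrial list ran from 7.37 to 8.00 with AACO and from 7.26 to 7.87 in control. Bmp10 was well above background on 1 of 6 arrays. With the level of Myl7 and Sln as a covariate the Angpt1 difference was 1.38 ± 0.80 (SE), with an adjusted p of 0.529 by limma, and 0 of all genes passed that fit. Without AACO replicate 3 the difference was 2.73 and passed the test (adjusted p = 0.0258 by limma), and without AACO replicate 1 it was 1.62 and did not (0.0787).

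The Angpt1 difference was above 0 under all 20 other settings, from 1.38 to 2.73, and its adjusted p was under 0.05 in 9 of them. These included no scaling (2.69), spike-in scaling (2.25), median scaling (2.18) and another background correction (1.88). Fitted probe by probe, over 20112 probes, the same difference had an adjusted p of 0.0497. Not all settings could turn the sign. Those for filter, probe averaging and intensity trend leave the difference of this 1 probe at 2.21. Because the groups did not overlap, leaving out an array could not turn it either.

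**Figure D2:**
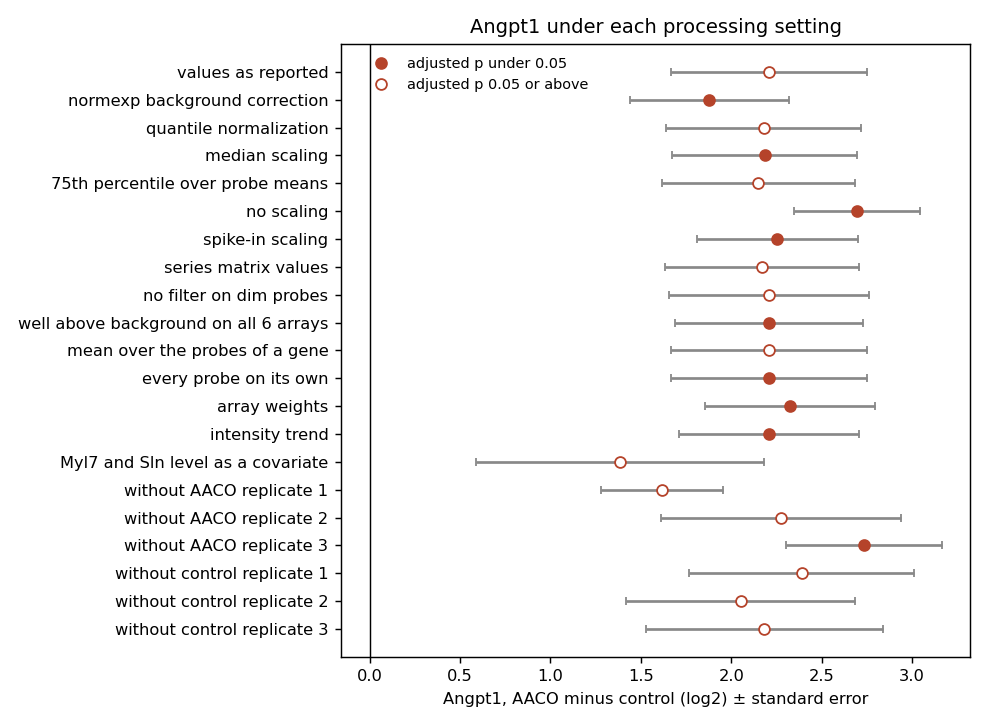
Angpt1 difference (AACO minus control, log2) with its standard error under each processing setting, marked by whether the adjusted p was under 0.05. All values lie above 0, from 1.38 to 2.73, while the side of the threshold changes between settings.

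Angpt2, the other angiopoietin, read at chr16:75939239-75939298, was at −3.02, −3.08 and −3.68 with AACO and at −3.19, −2.62 and −2.74 in control. The groups overlapped, and the difference was −0.41 ± 0.23 (SE; adjusted p = 0.280 by limma). Within an array, Angpt2 minus Angpt1 was −3.59, −2.33 and −2.02 with AACO and −0.73, 0.51 and 0.13 in control. This log ratio was lower on every AACO array than on every control array, with a mean difference of −2.62. The exact two-sided permutation test gave p = 0.1, the smallest that 3 arrays against 3 allow, and 0.4 after adjustment over the 4 ratios tested. The ratio needs no scaling between arrays, and it was not computed against any other probe of either gene because each has 1.

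Vegfa, the main VEGF ligand, was read by its brightest probe at 4.05, 4.46 and 4.24 with AACO and at 4.45, 4.62 and 4.34 in control. The groups overlapped and the difference was −0.22 ± 0.14 (SE; adjusted p = 0.327 by limma). The upstream coding probe had a difference of −0.19 ± 0.14 (SE), with overlapping groups.

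The downstream coding probe of Vegfa stood lower with AACO. It read −1.42, −1.33 and −1.01 on the AACO arrays and −0.45, −0.62 and −0.70 on the control arrays. All 3 AACO arrays were below all 3 control arrays. The difference was −0.66 ± 0.14 (SE), or 1.58-fold lower, and it passed the test fitted probe by probe (adjusted p = 0.0369 by limma). In that fit 11.1% of all probes passed, and 4.82% of all probes passed in this direction. Of the 14 probes, 2 passed, this one and that of Angpt1, and 5 had groups that did not overlap, against 37.1% of all probes.

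A lower reading of 1 Vegfa probe is not by itself an unequal change among its probes. Measured within each array against the upstream coding and the brightest probe, the downstream coding probe differed by −0.47 and −0.44. The groups overlapped for the first of these ratios (exact permutation p = 0.2) and not for the second (p = 0.1). With 3 arrays against 3, p cannot go below 0.1, so neither test could pass the threshold. The probe was singled out after its values were seen. Its call was lost in 9 of 18 other settings, among them no scaling (−0.18, adjusted p = 0.600 by limma), spike-in scaling (0.0949) and no filter on dim probes (0.0522). It was also lost without AACO replicate 1 (0.116), AACO replicate 2 (0.126), control replicate 1 (0.0777), control replicate 2 (0.0782) or control replicate 3 (0.0781). With the level of Myl7 and Sln as a covariate the difference was −0.39 (0.444).

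**Figure D3:**
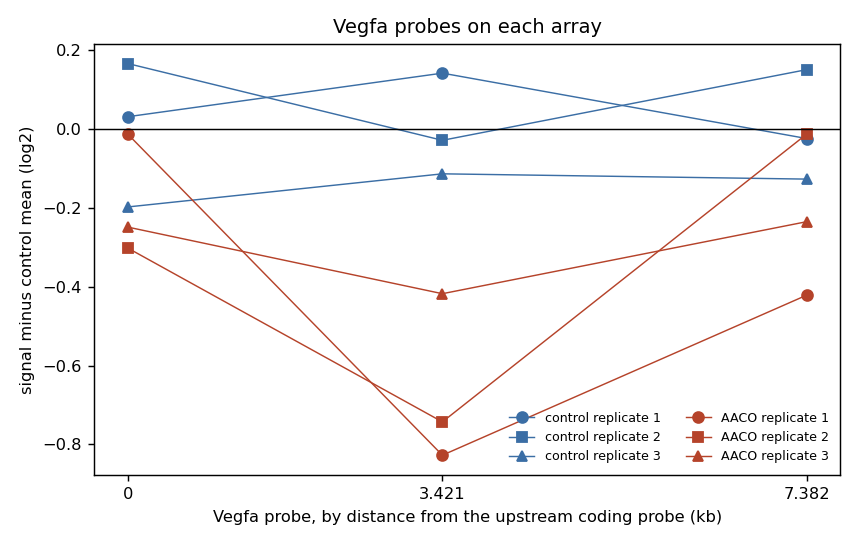
Level of 3 of the Vegfa probes on each array, as the difference from the control mean of the same probe (log2), against the distance of the probe from the upstream coding probe in kilobases. At 3.42 kb, the downstream coding probe, the 3 AACO arrays lie below the 3 control arrays, and at the other probes shown the groups overlap. Without scaling between arrays the difference at that probe was −0.18.

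Vegfb, a Flt1 ligand abundant in heart muscle and read at chr1:209657830-209657889 of rn4, was at 3.67, 3.60 and 3.91 with AACO and at 3.63, 3.58 and 3.42 in control. The difference of 0.18 ± 0.12 (SE) did not pass the test (adjusted p = 0.356 by limma). The log ratio of Vegfb to Vegfa was −0.38, −0.86 and −0.32 with AACO and −0.81, −1.04 and −0.93 in control. It was higher with AACO by 0.41, with groups that overlapped at AACO replicate 2 (exact permutation p = 0.2, adjusted 0.4).

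Vegfc, a ligand of lymphatic growth read at chr16:40624468-40624527, was at −0.32, −0.34 and −0.22 with AACO and at −0.12, −0.29 and −0.30 in control. The difference was −0.06 ± 0.10 (SE), with a 95% interval from −0.30 to 0.18.

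Pgf, placental growth factor, binds Flt1. Its brighter probe, at chr6:109215543-109215602, read −0.20, −0.07 and −0.49 with AACO and −0.67, −0.44 and −0.66 in control. AACO replicate 3 lay within the control range and the other AACO arrays above it. The difference was 0.34 ± 0.14 (SE; adjusted p = 0.163 by limma), and with the level of Myl7 and Sln as a covariate it was 0.06. Its dimmer probe was well above background on 3 AACO arrays and 1 control array and differed by 0.31 (adjusted p = 0.142). Without scaling the Pgf difference was 0.82 and passed the test (adjusted p = 0.0206).

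Among the receptors, Kdr had the smallest adjusted p. Its probe is listed as unmapped in the array files. Kdr was at 3.28, 3.30 and 3.40 with AACO and at 3.85, 3.66 and 3.54 in control. All AACO arrays were below all control arrays. The difference was −0.36 ± 0.11 (SE), or 1.28-fold lower, with a 95% interval from −0.63 to −0.09 and an adjusted p of 0.0895 by limma. It did not pass the test under any of the 20 other settings, and it turned to 0.13 without scaling.

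Flt1, read at chr12:7957094-7957153, was at −2.64, −2.66 and −2.21 with AACO and at −1.96, −2.10 and −2.20 in control. The groups did not overlap, but AACO replicate 3 was just below the lowest control array. The difference was −0.42 ± 0.15 (SE; adjusted p = 0.123 by limma), and it turned to 0.07 without scaling. Without AACO replicate 3, which had the lowest Myl7 and Sln level of its group, the Flt1 difference was −0.57 and passed the test (adjusted p = 0.0404). With the level of Myl7 and Sln as a covariate the difference was −0.07. The log ratio of Flt1 to Kdr differed by −0.06 between the groups (exact permutation p = 0.6, adjusted 0.8).

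Tek, the angiopoietin receptor, read at chr5:115178576-115178635, was at −3.47, −3.71 and −3.72 with AACO and at −3.48, −3.15 and −3.23 in control. AACO replicate 1 lay just above the lowest control array, so the groups overlapped. The difference was −0.35 ± 0.13 (SE; adjusted p = 0.133 by limma), and 0.14 without scaling. Tie1, read at chr5:138950263-138950322, was at −2.21, −2.06 and −1.81 with AACO and at −1.56, −1.83 and −1.75 in control. The groups overlapped at 1 AACO and 1 control array. The difference was −0.31 ± 0.14 (SE; adjusted p = 0.190), and 0.18 without scaling. The log ratio of Tek to Tie1 differed by −0.04 (exact permutation p = 0.9, adjusted 0.9).

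All 4 receptors, which are known mainly from endothelial cells, thus had fitted differences between −0.42 and −0.31 with 75th percentile scaling and between 0.07 and 0.18 without scaling. With the level of Myl7 and Sln as a covariate the differences were −0.07 for Flt1, −0.25 for Kdr, −0.41 for Tek and −0.09 for Tie1. In whole heart RNA, fewer cells of a type and less RNA per cell cannot be told apart.

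**Figure D4:**
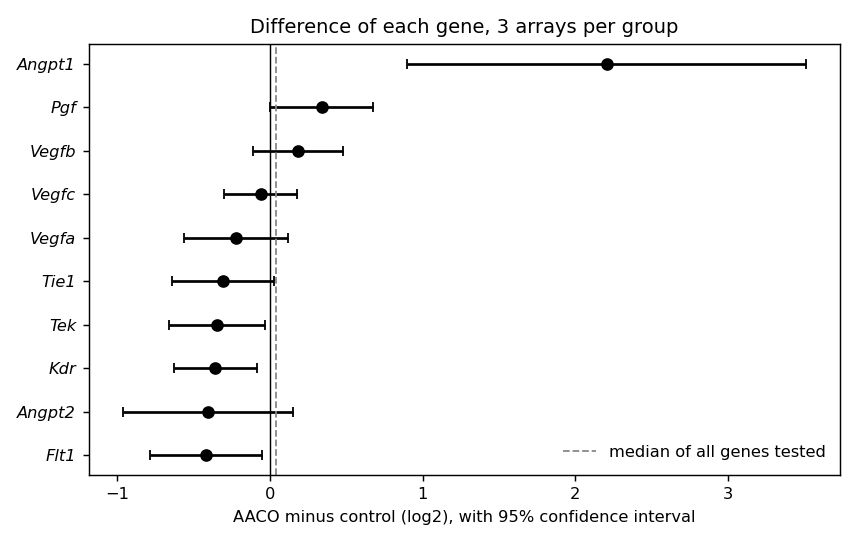
Difference of each of the 10 genes (AACO minus control, log2) with its 95% confidence interval, 3 arrays per group. The Angpt1 interval, 0.90 to 3.52, lies farthest from 0. The 4 receptor values lie below 0 on this scale and above 0 without scaling.

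Endothelial markers were set beside the receptors. Of 20 such markers 17 were tested, and 1 fell and 0 rose. Of all genes tested 4.94% fell and 6.32% rose, the shares to set beside the counts of each marker list. The array holds no probe named for the other 3. Icam2, an adhesion molecule of resting endothelium, fell by 0.84 ± 0.12 on the log2 scale (adjusted p = 0.0154 by limma). It lost that call without scaling (−0.36, adjusted p = 0.283) and without AACO replicate 1, AACO replicate 2 or control replicate 3, where the highest adjusted p was 0.0717. Vwf, von Willebrand factor, had a difference of 0.13 by its brightest probe (0.738), while of its 2 other probes 1 differed by 0.06 and the other rose by 2.04 in the fit probe by probe (0.00598). Eng, the endothelial co-receptor endoglin, had a difference of −0.45 (adjusted p = 0.0629). The fitted difference was below 0 for 15 of the 17, with a median of −0.16, which was 0.32 without scaling. The summed level of the 17 ran from 4.76 to 4.81 with AACO and from 4.89 to 5.03 in control. The part of this in the receptor values was not tested.

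Cells around vessels can make Angpt1. Of 9 pericyte markers tested, Higd1b fell by 0.65 ± 0.12 (adjusted p = 0.0290) and 0 rose, and Mcam had a difference of −0.42 (0.0717). The fitted difference was below 0 for 6 of the 9, with a median of −0.10. It was above 0 for Pdgfrb (0.37), Kcnj8 (0.20) and Cspg4 (0.09). Their summed level was 4.33 to 4.40 with AACO and 4.43 to 4.45 in control. Higd1b kept its call in 1 of the 6 fits that left out an array, with adjusted p up to 0.101, and lost it without scaling (−0.16, 0.628).
Of 8 smooth muscle markers 2 rose and 0 fell. These were Smtn, smoothelin (0.57, adjusted p = 0.0322), and Lmod1, leiomodin (0.60, 0.0490). The differences had a median of 0.60 and the summed levels were 6.02 to 6.29 with AACO and 5.89 to 6.11 in control. Smtn kept its call in 1 and Lmod1 in 0 of the 6 fits that left out an array. Of 10 fibroblast markers 0 passed the test and 1 had an unadjusted p under 0.05, and Dcn (−0.57, 0.148) and Dpt (−0.49, 0.190) had the smallest adjusted p. Summed fibroblast levels were 5.35 to 5.85 with AACO and 5.53 to 6.08 in control. The part of these cell types in the Angpt1 value was not tested.

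Other cells that can carry these transcripts are platelets, which store VEGF and Angpt1, and macrophages, which make Vegfa. Of 5 platelet markers tested, Pf4, platelet factor 4, fell by 0.97 ± 0.13 (adjusted p = 0.0119 by limma) and 0 rose. Treml1 had a difference of −0.61 (0.170). The median of the 5 was −0.08, with 4 below 0, and 1 of the 5 had groups that did not overlap (37.4% of all genes). The summed level was 1.15 to 1.25 with AACO and 1.52 to 1.68 in control, and of the other platelet markers Gp1ba was well above background on 0 arrays and Ppbp on 1. The Pf4 call was lost without scaling (−0.49, adjusted p = 0.153), with the Myl7 and Sln covariate (0.200) and without AACO replicate 2 (0.0617).
Of 12 macrophage markers 9 fell and 0 rose, with a median of −1.14. Mrc1, the mannose receptor, fell by 2.45 on the log2 scale (adjusted p = 0.00697). Adgre1, a macrophage surface receptor, fell less than Mrc1, by 2.83-fold on the linear scale (0.00830). The summed macrophage level was 3.89 to 4.01 with AACO and 4.64 to 5.22 in control. Mrc1 and Adgre1 kept their calls in all 6 fits that left out an array. In those fits the log2 difference ran from −2.61 to −2.24 for Mrc1 and from −1.66 to −1.42 for Adgre1. Without scaling the macrophage median was −0.65 and 5 of the 12 fell, against 232 of all 17536 genes. The part of these cells in the Vegfa values was not tested.

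The remaining marker lists were read for the same purpose. Of 7 lymphatic markers, Lyve1, a hyaluronan receptor also found on macrophages, fell by 1.33 (adjusted p = 0.0345) and 0 rose, and Reln had a difference of 1.82 (0.0908). The summed lymphatic level was 0.68 to 1.54 with AACO and 1.07 to 1.67 in control. Of 4 epicardial markers tested 0 passed in limma, 0 also without adjustment, with Aldh1a2 at −0.82 (0.226) and Wt1 at −0.33 (0.228). Of 10 cardiomyocyte markers 0 passed, again 0 without adjustment, with Actc1 at −0.23 (0.292) and Mb at −0.22 (0.434). Of 6 atrial markers, Myl7 had a difference of 5.59 (0.0954) and Sln of 2.51 (0.159). Of 3 red cell markers Alas2, the first enzyme of erythroid haem synthesis, fell by 1.33 (0.0243), and Slc4a1 had a difference of −0.37 (0.496). Lyve1 kept its call in 1 and Alas2 in 2 of the 6 fits that left out an array.

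Over the 7 pathway lists around VEGF and angiopoietin signalling, 95 genes were tested, 3 rose and 7 fell, against 6.32% and 4.94% of all genes. Without scaling 25 of the 95 were higher and 3 lower, while 5493 of all 17536 genes were higher and 232 lower. Of the 7 genes that fell with scaling, Vegfd, Notch1, Bnip3 and S1pr1 lost their calls without it. Medians below are those with 75th percentile scaling. Without scaling the median of every pathway and marker list but the macrophage one was above 0, and with normexp background correction that of the VEGF target and tip cell genes was −0.19. Among other ligands and co-receptors of the VEGF family 1 of 6 fell and 0 rose, with a median of 0.42. Vegfd, a ligand of the lymphatic receptor Flt4, was at −5.54, −5.51 and −5.81 with AACO and at −5.01, −4.90 and −4.84 in control. All 3 AACO arrays were below all control arrays, and it fell by 0.70 ± 0.12 (adjusted p = 0.0206 by limma). Its call was lost without scaling (−0.22, adjusted p = 0.494) and without AACO replicate 1, AACO replicate 2, control replicate 2 or control replicate 3 (adjusted p up to 0.0695). Sema3c, a guidance ligand of neuropilin receptors, had a difference of 0.77 ± 0.20 (0.0561), and the VEGF co-receptor Nrp1 had one of 0.62 ± 0.23 (0.124). Nrp2 was well above background on 0 arrays. Of 6 angiopoietin-TIE regulators 0 passed in limma, 0 also without adjustment, with a median of −0.20. The smallest adjusted p were those of Svep1, an extracellular ligand of Tie1 (−0.41, 0.175), Grb14 (0.27, 0.208) and Adam17, a protease that sheds membrane proteins (−0.16, 0.272). Angpt4 was well above background on 0 arrays.

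Of 17 genes of VEGF signalling in endothelial cells 1 rose and 0 fell, with a median of −0.16. Mapk3, the kinase ERK1, rose by 0.55 ± 0.11 (adjusted p = 0.0309 by limma). Hspb1, a small heat shock protein on the p38 branch, had a difference of −0.67 (0.0525), and Pxn, paxillin of focal adhesions, one of −0.41 (0.0525). Of 20 VEGF target and tip cell genes 1 rose and 2 fell, with a median of 0.05. Hey2, a Notch target found in arterial endothelium and in heart muscle, was at −0.85, −0.38 and −0.86 with AACO and at −2.01, −1.64 and −2.11 in control. Its groups did not overlap, and it rose by 1.22 ± 0.19 (0.0165). Rcan1, a calcineurin inhibitor and VEGF target that also responds to cardiac load, was at 4.53, 4.45 and 5.43 with AACO and at 6.24, 6.26 and 6.08 in control. It fell by 1.39 ± 0.27 (0.0286), with AACO replicate 3 nearest to the controls. The receptor Notch1 fell by 0.53 (0.0354), but its other probe had a difference of 0.42 (0.457). Of the 6 fits that left out an array, the call was kept in 3 for Hey2, in 1 for Mapk3 and Rcan1 and in 0 for Notch1.

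Of 18 genes of the hypoxia-inducible factor (HIF) pathway and its targets, to which Vegfa and Flt1 are known to belong, 3 fell and 0 rose, with a median of −0.22 and 0.27 without scaling. Adm, the vessel-relaxing peptide adrenomedullin, was at 1.48, 1.57 and 1.87 with AACO and at 3.04, 3.29 and 3.0 in control. Its groups did not overlap, and it fell by 1.47 ± 0.14 (adjusted p = 0.00719 by limma), a call kept in all 6 fits that left out an array. Ndrg1 fell by 1.23 ± 0.24 (0.0285), and Bnip3, a mitophagy receptor, fell by 0.73 (0.0243). They kept their calls in 2 and 1 of those 6 fits. Of the 18, which include regulators such as Vhl as well as targets, 12 had differences below 0 and 6 above. Among the 6 were Epas1 (0.82, adjusted p = 0.0657 by limma), Ldha (0.31), Slc2a1 (0.29) and Pgk1 (0.16). Vegfa, for its part, had a difference of −0.22 by its brightest probe.

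The promoters of Flt1 and Kdr, the receptors whose groups did not overlap, are shown because HIF target genes were counted here. They are the 250 bases before the RefSeq start, on the plus strand of assembly GRCr8, at chr12:12333180-12333429 and chr14:32571813-32572062. Capitals mark matches to the HIF core, searched as ACGTG or GCGTG on both strands.
Flt1 promoter: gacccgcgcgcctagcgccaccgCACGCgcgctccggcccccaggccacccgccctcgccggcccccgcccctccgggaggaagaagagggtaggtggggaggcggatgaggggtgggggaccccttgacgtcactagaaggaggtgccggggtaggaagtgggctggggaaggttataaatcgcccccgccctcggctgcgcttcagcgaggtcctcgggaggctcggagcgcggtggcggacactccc
Kdr promoter: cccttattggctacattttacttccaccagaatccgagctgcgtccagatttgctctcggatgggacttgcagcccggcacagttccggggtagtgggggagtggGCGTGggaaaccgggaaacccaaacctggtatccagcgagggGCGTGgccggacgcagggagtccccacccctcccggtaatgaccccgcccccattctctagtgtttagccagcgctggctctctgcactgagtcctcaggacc
Flt1 had 1 match and Kdr 2, Vegfb and Pgf had 1 each, Vegfc, Tie1 and both Vegfa starts had 0, and 36.7% of all 33469 promoter windows of this length held at least 1. The GC box, GGGCGG on either strand, had 3 matches in Flt1 and 1 in Kdr, and 30.5% of all windows held it. These matches describe letters in the window and not bound sites. In all 7 of the 10 genes had a promoter sequence, and Angpt1, Angpt2 and Tek are named only.

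Of 16 other angiogenic growth factors and receptors 1 fell and 0 rose, and 14 had differences below 0. S1pr1, the endothelial receptor for sphingosine 1-phosphate, was at 0.63, 1.25 and 1.28 with AACO and at 2.03, 2.11 and 1.83 in control. The groups did not overlap, and it fell by 0.94 ± 0.20 (adjusted p = 0.0352 by limma). Eng (−0.45, 0.0629) and the cytokine Tgfb1 (−0.41, 0.0661) did not pass. Pdgfa, 1 of the 2 genes above 0, had a difference of 0.47 by its brightest probe (0.0953). Its other probe rose by 0.64 in the fit probe by probe (0.0349). The list's median was −0.22, and 0.27 without scaling. Of 12 angiogenesis inhibitors 1 rose and 0 fell, with a median of −0.04. Spry2, an inhibitor of receptor tyrosine kinase signalling, was at −1.87, −1.79 and −2.36 with AACO and at −2.68, −2.89 and −2.72 in control, and rose by 0.76 ± 0.17 (0.0421). Its AACO arrays all lay above its control arrays. Serpinf1 (−0.57, 0.104) and Col18a1, the precursor of endostatin (0.53, 0.138), did not pass. S1pr1 and Spry2 each kept the call in 1 of the 6 fits that left out an array.

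**Figure D5:**
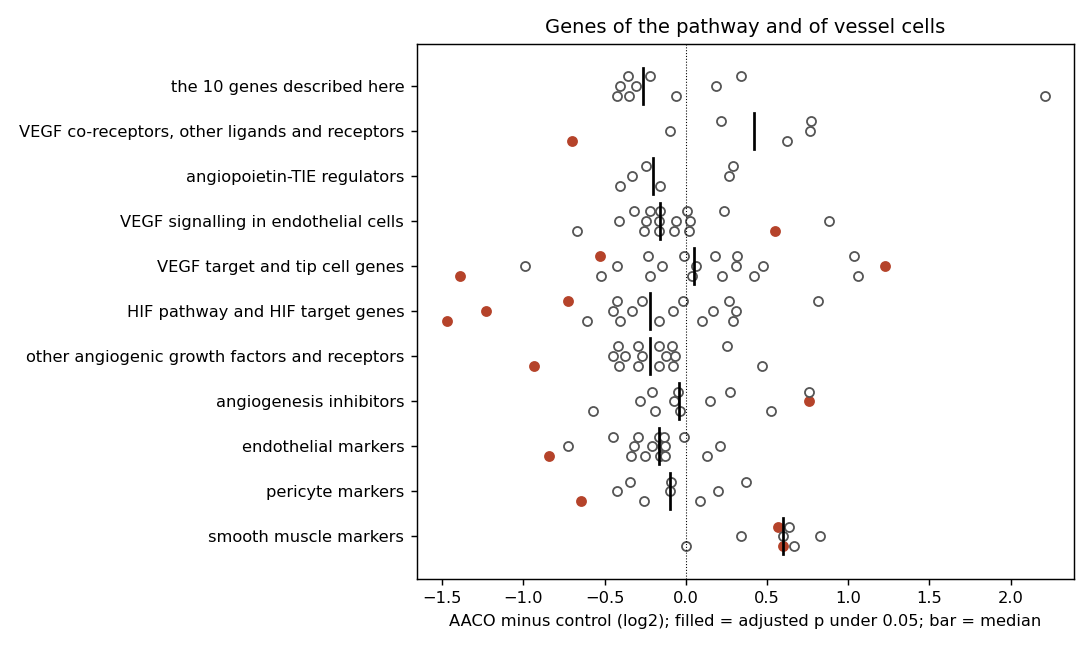
Difference (AACO minus control, log2) of the 10 genes and of every tested gene of the lists drawn. There is 1 point per gene, and a bar marks the median. The lists drawn are the pathway lists and the endothelial, pericyte and smooth muscle markers. The 10 genes have the lowest median, at −0.27, and the smooth muscle list has the highest, at 0.60. Without scaling between arrays the median of every list drawn was above 0.

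The profiles most like those of Angpt1 and Kdr were read over the 6 arrays among 13401 genes with a symbol, as a description. Nearest to Angpt1 by Pearson's r were Gab1 (0.998), Ache (0.997) and Ist1 (0.996), and 13 genes had r above 0.99. After removal of the group means the nearest were Prex2 (0.999), Sdf2l1 (0.998) and Epb41l5 (0.998). Nearest to Kdr were Tbkbp1 (0.996), Dynlt3 (0.993) and Ubfd1 (0.993), and after removal of the group means Crybb1 (0.997), Tmem14c (0.994) and Pdgfb (0.992). The 3 nearest genes before and after removal of the group means were different genes for both. The points share slide, scan day and the Myl7 and Sln levels of their arrays.

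The 2 spots of a probe show how well 1 array repeats itself. Over the probes that stood for the 10 genes the median gap between the spots was 0.10 on the log2 scale, and the largest was 0.63, for Angpt1 on control replicate 1. This gap is within an array and leaves out the spread between animals.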

How the data were processed

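Intensity was deposited as Agilent Feature Extraction 10.7.1.1 text files of single-colour Cy3 arrays, per the labels and the file headers, and the processed signal used had its background subtracted and no scaling across arrays. The authors also deposited a series matrix of log2 values of the same arrays, whose normalization is not stated. Its columns have a common median of 6.77 and follow the scanner values at r of 0.998 or more. Direction and log base were read from that match.

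Signals were taken to log2, spots marked as outliers left out, and log2 of the array's 75th percentile over 58717 non-control spots subtracted. Spots of a probe were averaged. Probes well above background on at least 3 of 6 arrays were kept (20112 of 30367), and the brightest stood for its gene (17536 genes). An accession matched the symbol table for 18005 probes, 5148 kept the file's name and 7214 had none. AACO was compared with control by limma 3.58.1 in R 4.3.3 (lmFit, eBayes, two-sided, Benjamini-Hochberg), which gave 1108 genes higher and 867 lower. The fit was tested on simulated data. Log ratios of pairs of genes were compared by exact permutation over arrays. No spot was saturated. The number of arrays limits the precision.

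The 10 genes and all lists were chosen with earlier results of these data known. The genes named are the 10, the 3 of each pathway list and 2 of each marker list with the smallest adjusted p, and the 3 genes most like Angpt1 and Kdr by each measure. Other genes of these lists were named after their values were seen. Replicate numbers within a group are in accession order and pair nothing. Of the Vegfa probes, 1 is counted among the 14, and its sequence, position and values are not reported here.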

Additional observations from a re-analysis of the deposited data

How the results depend on the processing

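Of the 10 genes, 0 differed in the fit as reported, and the count was 1 with normexp background correction, median scaling, spike-in scaling, a filter on all 6 arrays, array weights or an intensity trend, and 2 without scaling or with every probe on its own. It ran from 0 to 2 when 1 array was left out. The genes that differed among all tested were 1975 as reported, 5725 without scaling, 3111 with array weights and 0 with the Myl7 and Sln covariate, and from 256 to 2162 with 1 array left out. The genes called on the pathway and marker lists were 26 as reported, 56 without scaling and 0 with the covariate, and 7 to 27 with 1 array left out. Of the 26, 15 kept their call without scaling. Calls that rose and fell were 1108 and 867 as reported, 777 and 2017 with normexp, 776 and 1401 with no filter, 1141 and 508 with spike-in scaling, 5493 and 232 without scaling, 991 and 1004 with quantile normalization, and 875 and 1041 with the percentile taken over probe means, an alternative added after the data were seen. The cause of these shifts was not tested.

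Without scaling the sign turned for Vegfa (0.26), Vegfc (0.42), Flt1 (0.065), Kdr (0.13), Angpt2 (0.0783), Tek (0.14), Tie1 (0.18), Svep1 (0.0802), Adam17 (0.33), Pxn (0.0727), Tgfb1 (0.0751), Eng (0.04), Mcam (0.0627), Wt1 (0.16), Actc1 (0.26), Mb (0.27) and Slc4a1 (0.12). With the covariate it turned for Vegfc (0.0403), Wt1 (0.0379) and Slc4a1 (0.20). The log ratio of Flt1 to Kdr ran from −0.173 to 0.0046 and that of Tek to Tie1 from −0.212 to 0.115 with 1 array left out. No paired analysis was possible because the labels give no number shared by an AACO and a control sample. Slide and scan day could not be fitted as a block because each held 1 group. Signal over background limits the dimmer Pgf probe.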
